A study of Danio rerio with 6 samples.

Results

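The tetraspanin genes of the zebrafish were followed in 3 samples homozygous for pikfyve-delta8 and 3 wild-type samples profiled by RNA sequencing. Members were taken by name alone, as every gene whose symbol is tspan with a number, or cd9, cd63, cd81, cd82 or cd151 with or without a final a or b. This gave 37 of 25645 genes, 29 with a tspan symbol and 8 with a cd symbol, and all 37 passed the filter on low counts. The family was taken up with the values of these same 6 samples known, so its levels, fold changes and calls are a description and none of them is offered as a test of the family. The pikfyve-delta8 allele was made by CRISPR/Cas9 editing, and fish with it are described as deficient in the kinase domain of Pikfyve, the lipid kinase of late endosomes and lysosomes. The labels give neither the age nor the tissue of the fish. Nor do they state whether a sample is 1 fish or several, or whether samples of a genotype are separate animals, and the spread between them may therefore be technical.

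Tetraspanins are small membrane proteins that cross the membrane 4 times and carry a short and a long extracellular loop. They gather other proteins, such as integrins, proteases and immunoglobulin-type receptors, into patches of the plasma membrane and of endosomes. Some, CD63 above all, reside mainly in late endosomes, lysosomes, melanosomes and the vesicles that cells release. Many zebrafish members exist as pairs from the genome duplication of bony fish, written with a final a and b.

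Each library held between 14677252 and 14949605 estimated counts. Levels are given in CPM, counts relative to the library size after TMM scaling, and 1 count was worth 0.0635 to 0.0728 CPM. Across genes, as a description only, Pearson's r between libraries in log2 CPM was 0.975 to 0.980 within the mutants, 0.991 to 0.992 within wild type and 0.925 to 0.939 between genotypes. Transcripts of pikfyve itself stood at 61.2, 63.2 and 73.6 CPM in the mutants and at 56.6, 53.8 and 52.1 CPM in wild type. These totals cover the whole gene and so cannot check the edit. Markers of photoreceptors, neurons, epidermis, intestine and red cells were all present. The sum of 6 intestine markers was 937 to 1277 CPM in the mutants and 1382 to 1508 CPM in wild type. Of these, 3 were higher and 1, fabp2, lower (edgeR adjusted p under 0.05). Transcripts of fabp2 averaged 544 CPM in the mutants and 924 CPM in wild type. For 7 red cell markers the sum was 560 to 841 CPM in the mutants and 1099 to 1280 CPM in wild type. By the same threshold 4 were lower and 1, hbae1.1, higher. Among the 4, hbbe1.2 had the lowest fold change and averaged 50.2 CPM in the mutants and 393 CPM in wild type. The globin gene hbbe1.1 averaged 346 CPM in the mutants and 361 CPM in wild type, and neither it nor hbae3 was called. Across all genes 25.1% were higher and 23.0% lower. The sum of 3 hatching gland markers was 2.62 to 15.6 CPM in the mutants and 36.5 to 41.1 CPM in wild type.

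Relative to wild type, a small group of tetraspanin transcripts was higher in the mutants by 2.00-fold to 8.28-fold in mean CPM, whereas most of the family differed by less than 2-fold. The 5 members called higher with at least a 2-fold difference were tspan36, tspan34, cd63, tspan37 and tspan35. Of these, tspan35 stood at the limit, with a log2 fold change of 1.00, and was just under 2-fold with DESeq2 (0.988) and limma-voom (0.993). A member is called here when its adjusted p in edgeR's quasi-likelihood test over all 21104 genes was under 0.05. By that rule 13 of 37 members (35.1%) were called higher, where 25.1% of all genes were, and 9 (24.3%) were called lower, where 23.0% of all genes were. The other 15 were not called, and over both directions 48.0% of all genes were called. Since the contrast was known when the family was taken up, nothing is read from these shares. Counts called in groups of members and in lists of partner and marker genes below stand beside the same shares. Nothing is read from these counts. At a 2-fold difference 13.5% of the members were called higher, against 7.43% of all genes, and no member was called lower, against 5.77% of all genes. The count of 0 was the same with DESeq2 and with limma-voom. The lowest log2 fold change of a member was -0.78, so an unadjusted p could not change the 0. Over the 17 alternatives that of tspan12 reached -1.03 at its lowest, past 2-fold, and its call was kept in all of them. The mutant samples lay entirely above wild type in CPM for 15 members (40.5%, against 30.1% of all genes) and entirely below for 10 (27.0%, against 28.7%). The median log2 fold change was 0.18 over the members and 0.0039 over all genes tested. With counts scaled by library size alone 8 members were called higher and 11 lower, and that scaling moved the median of all genes to -0.14 and that of the members to 0.03. Over all genes it gave 3824 called higher and 6561 lower, where TMM scaling gave 5295 higher and 4845 lower.

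**Figure D1:**
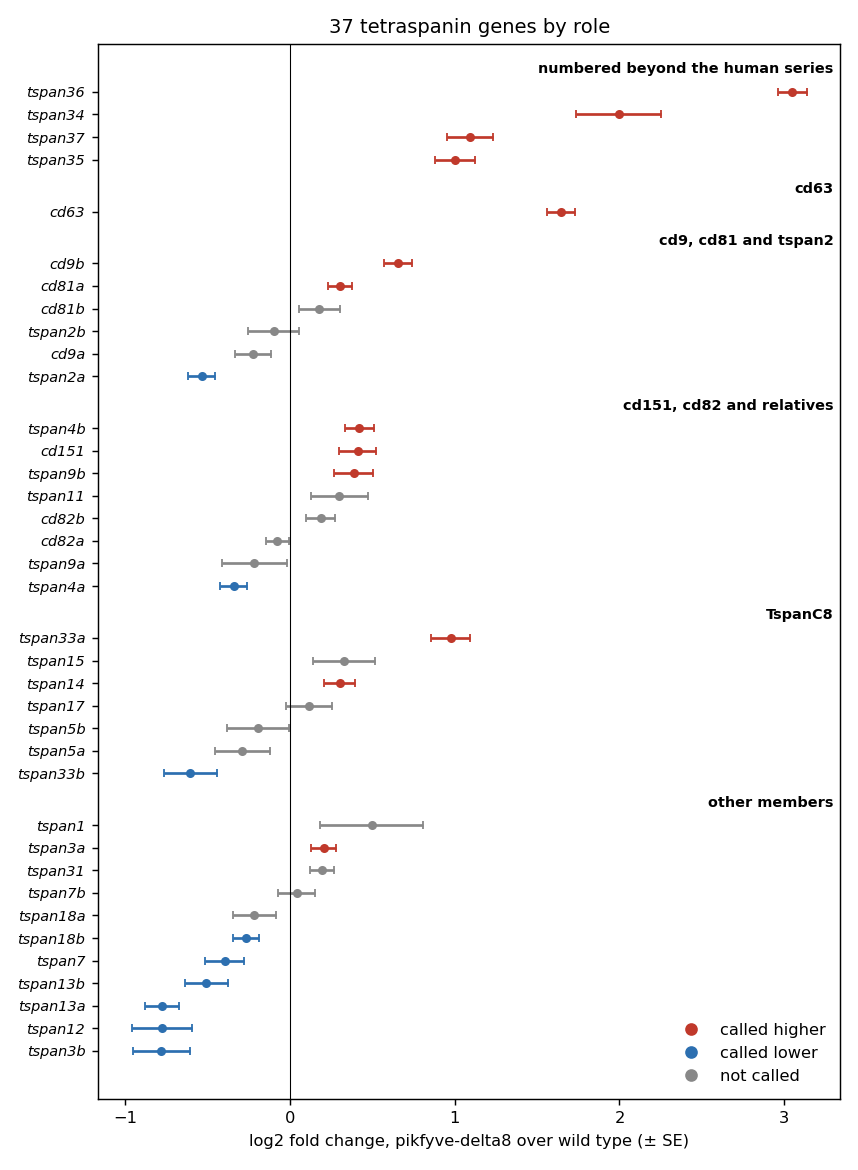
Log2 fold change of each of the 37 tetraspanin genes, pikfyve-delta8 over wild type, with its SE (horizontal axis), grouped by role; red, called higher; blue, called lower; grey, not called at an adjusted p under 0.05 (edgeR). The points run from 3.05 for tspan36 to -0.78 for tspan3b, and the 4 genes with numbers beyond the human series and cd63 are the 5 points at or above 1.

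The member with the largest difference was tspan36 (Gene ID 437021), whose transcripts are known from zebrafish pigment cells. It stood at 262, 263 and 303 CPM in the mutants, against 32.4, 35.0 and 32.7 CPM in wild type. The lowest mutant sample was therefore several times above the highest wild-type sample, and within each genotype the samples lay close together. Means were 276 ± 23.3 CPM in the mutants and 33.4 ± 1.4 CPM in wild type (SD, n = 3 each), an 8.28-fold difference and a log2 fold change of 3.05 ± 0.09 (SE). Of all 21104 genes tested, 117 had a higher log2 fold change. The estimates were whole numbers in every sample, from 3618 to 4425 counts in the mutants and from 510 to 540 in wild type. Over the 17 alternatives the log2 fold change ran from 2.86 to 3.08.

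Pigment cell markers gave other values. Tested were 24 markers of melanophores, iridophores and xanthophores, the black, silvery and yellow pigment cells. Of these, 6 were called higher and 5 lower, where 25.1% of all genes were called higher and 23.0% lower. The log2 fold changes of the 24 markers lay between -1.65 and 0.81. Their summed level was 413 to 525 CPM in the mutants and 439 to 462 CPM in wild type, and these ranges overlap. By list the sums were 172 to 218 CPM in the mutants and 138 to 147 CPM in wild type for melanophores, 105 to 132 CPM in the mutants and 136 to 147 CPM in wild type for iridophores, and 137 to 175 CPM in the mutants and 165 to 178 CPM in wild type for xanthophores. Among them pmela, also in the list of CD63 partners, which encodes the fibril protein of melanosomes, averaged 69.1 ± 6.49 CPM in the mutants and 44.2 ± 3.04 CPM in wild type. The purine enzyme gene pnp4a, an iridophore marker, averaged 5.93 ± 1.65 CPM in the mutants and 18.6 ± 0.804 CPM in wild type. Among 7 iridophore markers pnp4a was the only gene called, and the other 6 were not called. Of 5 genes of the retinal pigment epithelium 2 were called lower and none higher (none also at an unadjusted p under 0.05, with DESeq2 and with limma-voom), and their sum was 30.4 to 44.4 CPM in the mutants and 52.9 to 59.5 CPM in wild type. In bulk samples the number of cells of a type and the RNA per cell cannot be told apart. The part of pigment cells in the level of tspan36 was not tested.

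Leukocyte markers differed between the neutrophil list and the macrophage and microglia list. Of 8 genes in the neutrophil list 7 were called higher, where 25.1% of all genes were called higher and 23.0% lower. The sum of the 8 was 2962 to 3512 CPM in the mutants and 1725 to 1874 CPM in wild type. Most of that sum came from cpa5, a pancreatic enzyme gene, so the sum is not a measure of neutrophils. For mpx, lyz and npsn, picked after their values were seen, the sum was 208 to 320 CPM in the mutants and 28.6 to 31.9 CPM in wild type. In that sum mpx averaged 147 ± 60.4 CPM in the mutants and 9.79 ± 0.732 CPM in wild type. The gene of the list that was not called, csf3r, had a log2 fold change of 0.66 ± 0.36, and its ranges overlapped. Of 9 macrophage and microglia markers 5 passed the filter, with 1 called higher and 3 lower, and their sum of 1574 to 1823 CPM in the mutants and 1169 to 1263 CPM in wild type was mostly apoeb, a lipoprotein gene also used outside macrophages. The gene of this list with the smallest p, mpeg1.1, averaged 1.97 ± 0.199 CPM in the mutants and 7.16 ± 0.663 CPM in wild type, and apoeb averaged 1657 ± 124 CPM in the mutants and 1154 ± 51.7 CPM in wild type. The part of leukocytes in the levels of the family was not tested.

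The lysosomal tetraspanin gene cd63 (Gene ID 321461) was the most strongly expressed member per transcript length in both genotypes. Its transcripts stood at 498, 571 and 601 CPM in the mutants, against 179, 180 and 175 CPM in wild type. The genotypes did not overlap, and the 3 wild-type samples were within a few percent of one another. The log2 fold change was 1.64 ± 0.09, or 3.13-fold in mean CPM, and it ran from 1.49 to 1.72 over the alternatives.

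Genes whose products sort or share compartments with CD63 were listed with earlier results of these data known. Of 12 tested, 8 were called higher and none lower, where 25.1% of all genes were called higher and 23.0% lower. Their median log2 fold change was 0.82. With DESeq2 and with limma-voom none was called lower either, while at an unadjusted p under 0.05 1 was. Transcripts of sdcbp2, 1 of 2 syntenin genes in the list, averaged 380 ± 38.5 CPM in the mutants and 123 ± 3.93 CPM in wild type. Their log2 fold change of 1.63 ± 0.09 was close to that of cd63 itself. The other syntenin gene, sdcbp, was not called, at -0.49 ± 0.21, and its mutant samples lay below wild type in CPM. The ALIX gene pdcd6ip, an accessory factor of the ESCRT machinery, averaged 287 ± 13.7 CPM in the mutants and 150 ± 2.28 CPM in wild type. The lysosomal membrane genes lamp2 and lamp1a had log2 fold changes of 1.24 ± 0.08 and 1.77 ± 0.13. The members of the list that were not called were sdcbp, rab27b, tsg101a and rab31.

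The other members with at least a 2-fold difference, tspan34, tspan35 and tspan37, carry numbers beyond those used for the human genes, as tspan36 does. That these 4 genes stand together was seen in the values and was not laid down beforehand. Transcripts of tspan34 stood at 10.7, 21.7 and 13.5 CPM in the mutants, against 3.88, 3.56 and 4.03 CPM in wild type. The second mutant sample was about as far above the other mutants as those were above wild type. Its log2 fold change was 2.00 ± 0.26, and 1.66 without pikfyve-delta8 replicate 2.

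Transcripts of tspan35 stood at 23.5, 26.3 and 31.0 CPM in the mutants, against 12.8, 14.1 and 13.5 CPM in wild type, with a log2 fold change of 1.00 ± 0.12. Without pikfyve-delta8 replicate 3, the highest sample, it was 0.87. It was also under 1 with DESeq2 (0.988), limma-voom (0.993), the replicate block (0.994), upper-quartile scaling (0.938) and library size alone (0.862). The same held with DESeq2 size factors (0.992), with no filter on low counts (0.995) and without wild type replicate 1 (0.961). Transcripts of tspan37 were the least variable of the group among mutants, at 8.47, 8.52 and 8.29 CPM, against 4.19, 4.02 and 3.65 CPM in wild type. The log2 fold change of tspan37 was 1.09 ± 0.14, and 0.946 with library size alone. On the log2(FPKM + 1) scale it was 0.74 for tspan37 and 0.79 for tspan35, and on the log2(FPKM + 0.1) scale 0.92 for tspan37 and 0.84 for tspan35.

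**Figure D2:**
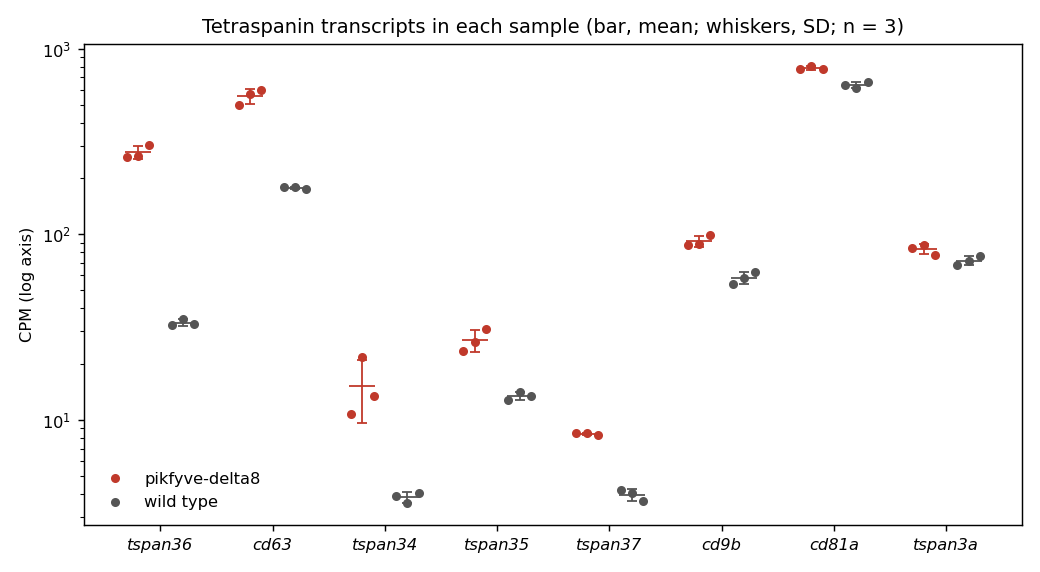
CPM (log axis) of 8 tetraspanin genes in each pikfyve-delta8 sample (red, left of each pair) and each wild-type sample (grey, right), with the mean and SD (n = 3). For tspan36 the mutants sit between 262 and 303 CPM and wild type between 32.4 and 35.0 CPM, while cd81a and tspan3a, which are also abundant, differ far less.

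Compared per transcript length, in FPKM, the order of the family differed between genotypes in several places. By mean FPKM tspan34 was 16th in the mutants and 32nd in wild type, tspan33a was 19th in the mutants and 29th in wild type, tspan2a was 21st in the mutants and 12th in wild type, and tspan3b was 32nd in the mutants and 24th in wild type. Among the most abundant members the change of place was that of tspan36. In the mutants the order was cd63, with 588 ± 73.2 FPKM, then tspan36 with 215 ± 27.1 FPKM, cd81a with 210 ± 7.12 FPKM, cd9b with 101 ± 10.7 FPKM and tspan3a with 51.4 ± 1.04 FPKM. Within the mutants the ranges of tspan36 and cd81a overlapped, so those places cannot be told apart. In wild type the order was cd63, with 207 ± 4.86 FPKM, then cd81a with 188 ± 8.93 FPKM, cd9b with 70.4 ± 5.14 FPKM and tspan3a with 49.3 ± 2.37 FPKM, and tspan36 was 11th with 28.6 ± 0.736 FPKM, within the range of cd9a. The lowest places in both genotypes were held by tspan1, tspan17 and tspan9a, each under 2 FPKM in every sample.

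Shares within a sample do not depend on the scaling between samples. Of the summed FPKM of the family, tspan36 made up 13.6 ± 0.670% in the mutants and 2.92 ± 0.155% in wild type, and cd63 made up 37.2 ± 1.57% in the mutants and 21.2 ± 0.641% in wild type (SD, n = 3 each). The ratio of cd63 to tspan36 in FPKM was 2.74 ± 0.186 in the mutants and 7.27 ± 0.280 in wild type. The whole family summed to 2528 ± 104 CPM in the mutants and 1721 ± 35.8 CPM in wild type. Without tspan36 and cd63 it summed to 1696 ± 34.8 CPM in the mutants and 1509 ± 39.1 CPM in wild type, so most of the difference in the sum lay in these 2 genes.

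**Figure D3:**
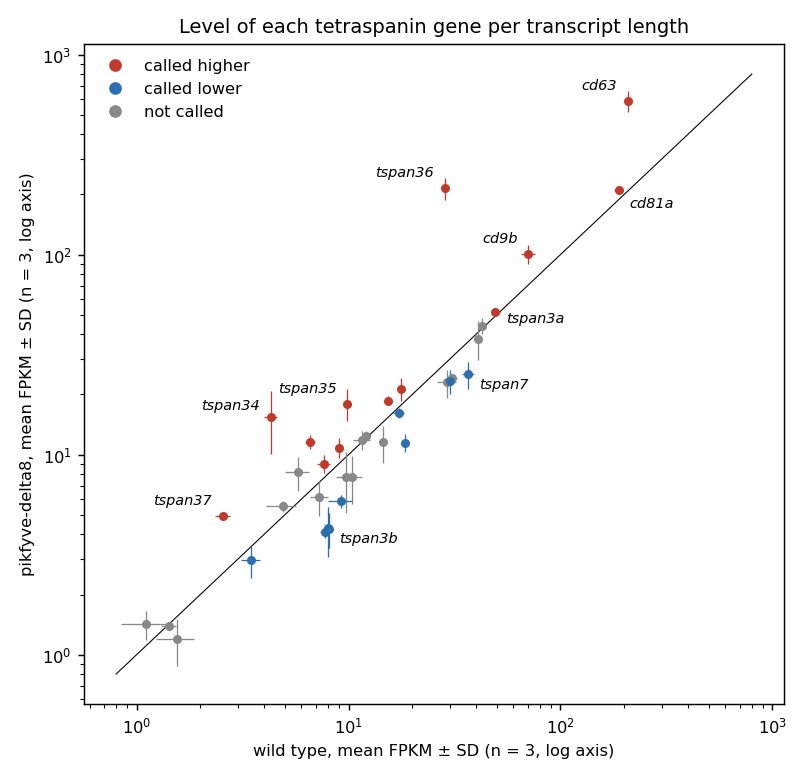
Mean FPKM of each tetraspanin gene in pikfyve-delta8 (vertical log axis) against wild type (horizontal log axis), with SD bars (n = 3); the line marks equal levels and colors mark the edgeR calls. The point for tspan36 lies farthest above the line, at 215 against 28.6 FPKM, and cd81a, at 210 against 188 FPKM, lies near it.

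The relatives CD9, CD81 and TSPAN2 organize surface proteins in many cell types. CD9 is needed for sperm and egg fusion in mice, CD81 is part of the B cell co-receptor in mammals, and TSPAN2 belongs to myelinating glia in mice. Of these 6 genes 2 were called higher, 1 lower and 3 not called, where 25.1% of all genes were called higher and 23.0% lower. Transcripts of cd9b stood at 87.4, 89.0 and 98.6 CPM in the mutants, against 53.9, 58.0 and 62.9 CPM in wild type, with no overlap and a log2 fold change of 0.65 ± 0.08. Its partner cd9a averaged 25.7 ± 3.28 CPM in the mutants and 30.0 ± 1.72 CPM in wild type and was not called. It was called lower without pikfyve-delta8 replicate 3 (edgeR adjusted p = 0.0309) and under scaling by library size only (0.0342).

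The most abundant member by CPM, cd81a, stood at 773, 808 and 778 CPM in the mutants, against 635, 615 and 663 CPM in wild type. This was a small separation, with a log2 fold change of 0.30 ± 0.07, and the call was lost with library size alone (adjusted p = 0.0617) and on the FPKM scale (adjusted p = 0.0728 to 0.0856). The copy cd81b, at 0.18 ± 0.13, was not called. Transcripts of tspan2a averaged 37.03 ± 3.16 CPM in the mutants and 53.7 ± 1.11 CPM in wild type, a log2 fold change of -0.54 ± 0.08, while tspan2b, at -0.10 ± 0.16, was not called. Of 8 markers of myelinating glia 6 were called lower and 1, sox10, higher, where 23.0% of all genes were called lower and 25.1% higher. The sum of these markers was 157 to 186 CPM in the mutants and 219 to 233 CPM in wild type. The part of these markers in the level of tspan2a was not tested.

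Surface partners of these proteins include immunoglobulin-type receptors, epcam and the growth factor hbegf. Of 9 such genes 5 were called higher and 2 lower, where 25.1% of all genes were called higher and 23.0% lower. Their median log2 fold change was 1.34. The epithelial adhesion gene epcam averaged 596 ± 107 CPM in the mutants and 141 ± 9.66 CPM in wild type. The growth factor gene hbegfa averaged 114 ± 19.7 CPM in the mutants and 27.4 ± 3.60 CPM in wild type. The immunoglobulin-type genes igsf3 and igsf8 were called lower, with log2 fold changes of -0.56 ± 0.12 and -0.56 ± 0.19. Among 10 epidermis markers 2 were called higher and 3 lower, and their sum was 12374 to 18835 CPM in the mutants and 19968 to 23102 CPM in wild type.

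CD151 holds laminin-binding integrins at the cell base, CD82 restrains cell movement in human tumor cells, TSPAN4 marks the retraction vesicles of moving cells and TSPAN9 is known from mouse platelets. Of these and the cd151 relative tspan11, 8 genes in all, 3 were called higher, 1 lower and 4 not called. The shares of all genes were 25.1% called higher and 23.0% lower. Every difference in this group was under 1.5-fold in CPM. Transcripts of tspan4b averaged 25.3 ± 1.1 CPM in the mutants and 18.9 ± 0.482 CPM in wild type, a log2 fold change of 0.42 ± 0.09. Its copy tspan4a averaged 23.5 ± 0.725 CPM in the mutants and 29.7 ± 0.918 CPM in wild type, a log2 fold change of -0.34 ± 0.08, although its call was lost on the FPKM scale (adjusted p = 0.355 to 0.393).

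Transcripts of cd151 averaged 13.2 ± 0.963 CPM in the mutants and 9.94 ± 0.466 CPM in wild type, with a log2 fold change of 0.41 ± 0.11. The call of cd151 was lost without wild type replicate 1 (edgeR adjusted p = 0.0644), with DESeq2 (0.0564), with library size alone (0.0947) and on the FPKM scale (0.0643 to 0.0800). The call of tspan9b, at 0.39 ± 0.12, was lost without pikfyve-delta8 replicate 2 (edgeR adjusted p = 0.0660), wild type replicate 2 (0.0913) or wild type replicate 3 (0.0659), with DESeq2 (0.0691), with library size alone (0.125) and on the FPKM scale (0.104 to 0.126). The genes tspan11, cd82a, cd82b and tspan9a were not called. Of these, cd82b was called higher without pikfyve-delta8 replicate 3 (edgeR adjusted p = 0.0228), and tspan11 was called higher on the FPKM scale (adjusted p = 0.0319 to 0.0440). On that scale cd82a, whose estimates were not whole numbers in 5 samples, was called lower (adjusted p = 0.00447 to 0.00648), as it was with library size alone (adjusted p = 0.0285).

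Of 11 laminin-binding integrin genes 4 were called higher and 2 lower, where 25.1% of all genes were called higher and 23.0% lower. Their median log2 fold change was 0.16. The alpha 7 gene itga7, an integrin subunit of muscle, averaged 41.0 ± 6.09 CPM in the mutants and 17.3 ± 1.87 CPM in wild type. The epithelial beta 4 gene itgb4 averaged 79.3 ± 4.33 CPM in the mutants and 59.4 ± 0.582 CPM in wild type. The beta 1 genes itgb1a and itgb1b.2 were called lower, with log2 fold changes of -0.33 ± 0.07 and -0.52 ± 0.12. The beta 1 gene itgb1b was called higher, at 0.64 ± 0.20, although its ranges overlapped, and itgb1b.1, at -0.03 ± 0.08, was not called. Several beta 1 genes are close copies, so the division of reads among them is uncertain.

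The TspanC8 tetraspanins have 8 cysteines in the large loop and carry the membrane protease ADAM10, which cuts Notch and other surface proteins, to the cell surface. Of 7 such genes 2 were called higher, 1 lower and 4 not called, where 25.1% of all genes were called higher and 23.0% lower. The clearest difference was in tspan33a, at 16.9, 19.7 and 16.1 CPM in the mutants, against 8.96, 8.55 and 9.29 CPM in wild type, a log2 fold change of 0.97 ± 0.12. Its copy tspan33b averaged 4.27 ± 0.616 CPM in the mutants and 6.50 ± 0.243 CPM in wild type, a log2 fold change of -0.61 ± 0.16. In FPKM the ranges of tspan33b overlapped and the call was lost (adjusted p = 0.274 to 0.309), and 2 of its estimates were not whole numbers.

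Transcripts of tspan14 averaged 40.9 ± 4.43 CPM in the mutants and 33.1 ± 1.48 CPM in wild type, with a log2 fold change of 0.30 ± 0.09. The call of tspan14 was lost under 11 of 17 alternatives, among them the removal of pikfyve-delta8 replicate 2 (edgeR adjusted p = 0.0625) or 3 (0.0534) and of wild type replicate 1 (0.106), 2 (0.0611) or 3 (0.0714). The genes tspan15, tspan17, tspan5a and tspan5b were not called, but without pikfyve-delta8 replicate 3 tspan5a (edgeR adjusted p = 0.0117) and tspan5b (adjusted p = 0.00868) were called lower, at -0.50 and -0.48.

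Listed beside this group were 4 ADAM protease and 4 Notch receptor genes, of which 2 were called higher and 1 lower. The shares of all genes were 25.1% called higher and 23.0% lower. The protease gene adam10a averaged 165 ± 11.1 CPM in the mutants and 109 ± 2.77 CPM in wild type, a log2 fold change of 0.61 ± 0.07. Its copy adam10b was not called. The sheddase gene adam17a had a log2 fold change of 0.35 ± 0.08. The receptor gene notch3, known from vessel walls and neural progenitors, averaged 52.0 ± 6.83 CPM in the mutants and 64.4 ± 4.31 CPM in wild type.

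Of the remaining 11 members, grouped after their values were seen, 6 were called lower, 1 higher and 4 not called, with a median log2 fold change of -0.27. Over all genes 23.0% were called lower and 25.1% higher, and nothing is read from the count in this group. The lowest fold change of the family was that of tspan3b, at 3.16, 2.91 and 3.90 CPM in the mutants, against 5.46, 6.02 and 5.70 CPM in wild type, -0.78 ± 0.17 on the log2 scale. Transcripts of tspan12, a co-receptor of the norrin signal for retinal vessels in mice, stood at 8.11, 4.88 and 5.34 CPM in the mutants, against 10.04, 10.9 and 10.4 CPM in wild type. Both sets are low counts, yet the genotypes did not overlap for either gene. In the norrin receptor complex the ligand gene ndp was called lower, at -0.47 ± 0.16, the co-receptor gene lrp5 was called higher, at 0.47 ± 0.09, and fzd4 and lrp6 were not called. Of 5 blood endothelium markers 3 were called higher, and their sum was 145 to 164 CPM in the mutants and 98.6 to 105 CPM in wild type.

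Both tspan13 genes were called lower. Transcripts of tspan13a averaged 15.9 ± 1.39 CPM in the mutants and 27.3 ± 1.63 CPM in wild type, a log2 fold change of -0.78 ± 0.10. Those of tspan13b had a log2 fold change of -0.51 ± 0.13, and their call was lost without wild type replicate 1 (edgeR adjusted p = 0.0513). The neuronal gene tspan7, linked in humans to intellectual disability, averaged 45.8 ± 8.01 CPM in the mutants and 60.3 ± 3.32 CPM in wild type. Its log2 fold change was -0.40 ± 0.12, and the call was lost without wild type replicate 1 (edgeR adjusted p = 0.0567) or 3 (0.0780).

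The copy tspan7b averaged 105 ± 18.3 CPM in the mutants and 102 ± 2.44 CPM in wild type and was not called. Its mutant samples stood at 92.9, 95.1 and 126 CPM, on both sides of the wild-type range of 99.1 to 104 CPM. All 9 neuron markers were called lower, where 23.0% of all genes were, with a median log2 fold change of -0.79. The sum of these markers was 945 to 1216 CPM in the mutants and 1747 to 1794 CPM in wild type. Their part in the level of tspan7 was not tested.

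Transcripts of tspan18b, which in human endothelial cells regulates a calcium channel, averaged 42.2 ± 3.13 CPM in the mutants and 50.8 ± 0.417 CPM in wild type. The call of tspan18b was lost without wild type replicate 1 (edgeR adjusted p = 0.0562), 2 (0.0585) or 3 (0.0661). Its copy tspan18a, at -0.22 ± 0.13, was called lower without pikfyve-delta8 replicate 3 (edgeR adjusted p = 0.0206) and not otherwise. The abundant gene tspan3a stood at 84.3, 87.5 and 77.8 CPM in the mutants, against 68.6, 72.0 and 76.1 CPM in wild type. The lowest mutant sample was just above the highest wild-type sample, and the log2 fold change of 0.20 ± 0.08 passed the threshold by a narrow margin (edgeR adjusted p = 0.0498). It lost its call under 15 of 17 alternatives, including the removal of pikfyve-delta8 replicate 1 (adjusted p = 0.0826) or 2 (0.123) and of wild type replicate 1 (0.197), 2 (0.144) or 3 (0.0764), and the replicate block (0.0904). Transcripts of tspan31 averaged 70.3 ± 4.29 CPM in the mutants and 61.5 ± 1.91 CPM in wild type and were called higher without pikfyve-delta8 replicate 1 (edgeR adjusted p = 0.0233) and not otherwise. The rarest member, tspan1, had 11 to 20 counts per sample and was not called.

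Gene pairs gave both like and unlike values. The 12 pairs comprised 1 with both genes called lower, 3 with one gene called higher and the other lower, 6 with one gene called and 2 with neither called. Since 48.0% of all genes were called in one direction or the other, nothing is read from these counts. The difference between copies was largest for tspan33, at 0.97 for tspan33a and -0.61 for tspan33b. It was next largest for tspan3, at 0.20 for tspan3a and -0.78 for tspan3b, and cd9, at 0.65 for cd9b and -0.23 for cd9a. The opposite calls of tspan3, tspan33 and tspan4 rest in part on the calls of tspan3a, tspan33b and tspan4a that were lost under other settings, and differences between copies were not tested.

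In the RefSeq annotation, used here only for gene order, 3 pairs of members lie side by side. They are cd82a with tspan18a, cd82b with tspan18b, and tspan33b with tspan9a. Of these 6 genes, tspan33b and tspan18b were called lower, where 23.0% of all genes were, and the other 4 were not called. The 5 members with at least a 2-fold difference had no other member as a neighbour.

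**Figure D4:**
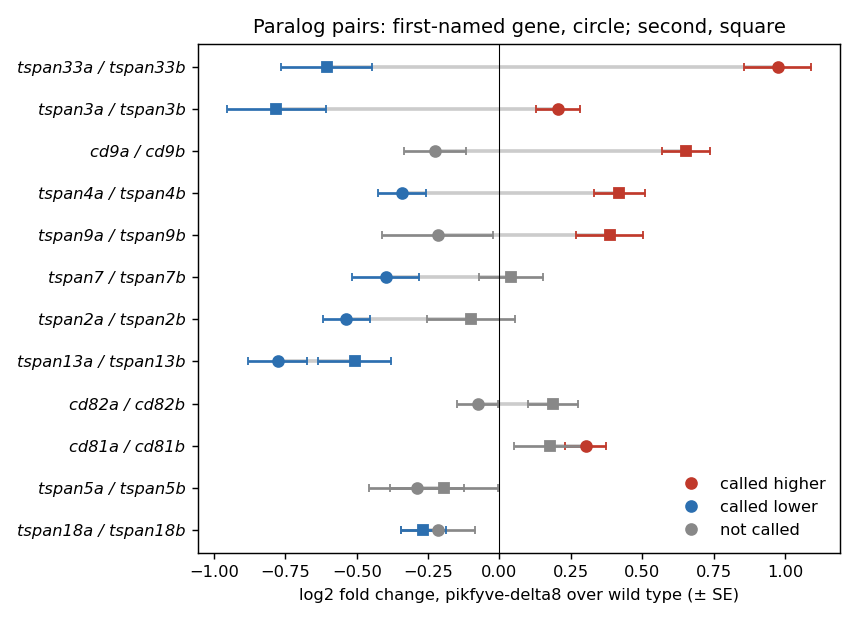
Log2 fold change, pikfyve-delta8 over wild type, with its SE (horizontal axis) for the 12 paralog pairs, first-named gene as a circle and second as a square, colored by edgeR call and sorted by the distance between copies. The pair tspan33 is widest, at 0.97 and -0.61, and the copies of tspan18 almost coincide.

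Tetraspanins whose symbols do not follow the family naming included the photoreceptor proteins peripherin and ROM1, which shape the rims of the outer segment discs. Of 8 such genes 6 were called lower and none higher (none at an unadjusted p under 0.05, with DESeq2 or with limma-voom), with a median log2 fold change of -1.07. All 6 were peripherin or ROM1 genes, and of all genes 23.0% were called lower and 25.1% higher. Transcripts of prph2b averaged 50.7 ± 11.7 CPM in the mutants and 152 ± 4.94 CPM in wild type, and those of prph2a averaged 54.1 ± 5.51 CPM in the mutants and 109 ± 5.57 CPM in wild type. The log2 fold changes of prph2lb and rom1b were -2.33 ± 0.22 and -1.09 ± 0.10. The leukocyte tetraspanin gene cd37 averaged 28.3 ± 2.07 CPM in the mutants and 27.9 ± 1.1 CPM in wild type, and the uroplakin gene upk1a stood below 2 CPM in both genotypes. All 8 photoreceptor markers were called lower, with a sum of 1240 to 1974 CPM in the mutants and 6398 to 6935 CPM in wild type, and their part in the peripherin and ROM1 levels was not tested.

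**Figure D5:**
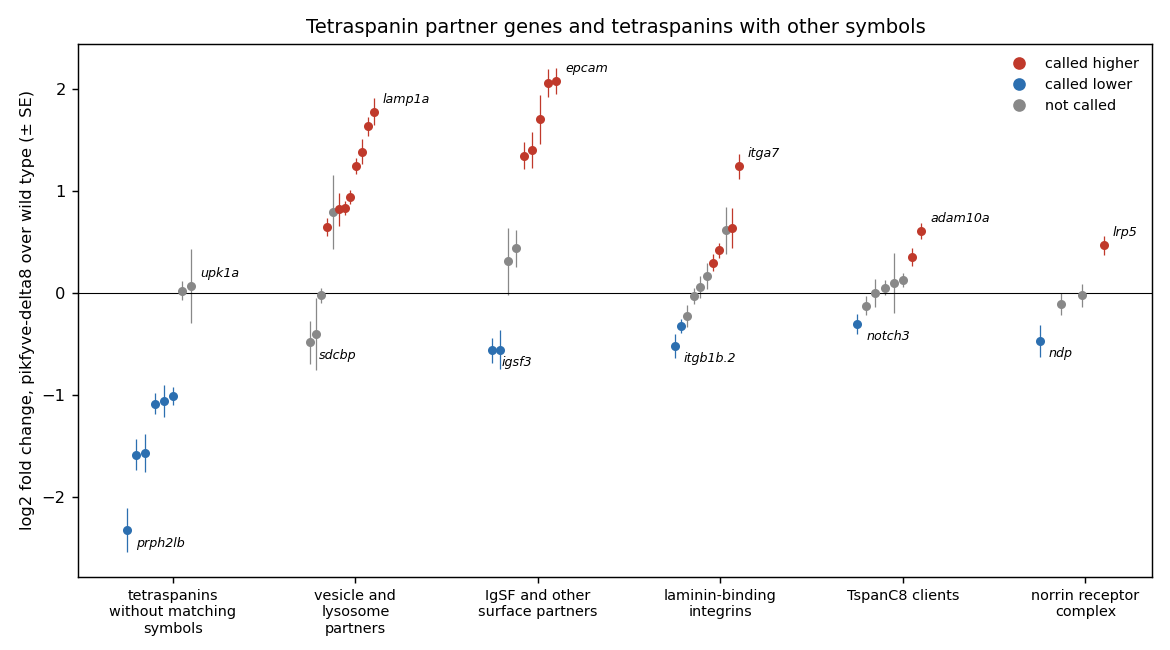
Log2 fold change, pikfyve-delta8 over wild type, with its SE (vertical axis) for tetraspanins with other symbols and for 5 lists of partner genes, colored by edgeR call; the lowest and highest gene of each list is named. The photoreceptor tetraspanins lie at -1.01 and below, and 8 of 12 vesicle and lysosome partners lie above 0.6 in red.

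The mutant samples varied more than the wild-type samples. The coefficient of variation of CPM was larger among mutants for 29 of 37 members (78.4%), where it was so for 75.2% of all genes, and its median over the members was 10.3% in the mutants and 5.26% in wild type. Among the 3 mutants, replicate 3 was highest for 16 members (43.2%, against 35.9% of all genes), replicate 2 for 15 (40.5%, against 31.8%) and replicate 1 for 6 (16.2%, against 32.3%).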

How the data were processed

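The authors deposited a single table with 25645 genes. Its estimated counts are, per the file headers, read counts per gene and sample, made by the authors before they were deposited; 10.7% to 11.6% of a sample's values were not whole numbers (tolerance 0.005). The FPKM values, per transcript length, were also deposited by the authors, per the file headers. Tools listed in the submitters' processing notes are RSEM 1.3.1, Bowtie2 and DESeq2 1.4.5, with the build GRCz11 and no stated roles. Strand handling is not given in the sources, and antisense reads cannot be told apart.

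Samples were grouped by title. Rounded to whole numbers, the estimated counts entered edgeR 4.0.16 under R 4.3.3 (filterByExpr, TMM, robust quasi-likelihood F-test on genotype, two-sided, Benjamini-Hochberg over 21104 genes). The SE is the log2 fold change divided by the square root of F. CPM uses TMM library sizes, and FPKM was used where genes are compared with each other. Alternatives were other scalings and filters, a block for the replicate number, leaving out every sample in turn, DESeq2 1.42.0, limma-voom and limma-trend (limma 3.58.1) on log2(FPKM + 1) and log2(FPKM + 0.1). The edgeR procedure was also run on counts simulated from its own fitted means and dispersions. Fold changes were set there only in genes with ample counts, so that run says nothing about members with few counts. Figures used matplotlib 3.10.9.

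The members, partner and marker lists and roles were chosen with earlier results of these data known. Every member is named. Values in every sample are given for tspan36, members called with at least a 2-fold difference and the 5 members with the highest FPKM, and for a few others (tspan33a, tspan3b, tspan12 and tspan7b) chosen after their values were seen. From each partner list up to 4 genes with the smallest p were named, 2 in each direction where both exist. The rule named marker genes in the same way, but most marker lists are given only by counts and sums, and the neutrophil genes, apoeb and sox10 were named after their values were seen. Of 162 listed genes 154 were in the table. All 37 gene identifiers matched the RefSeq table of another assembly, GRCz12tu, which served only for gene order. No sequences are shown. The sum over mpx, lyz and npsn and the grouping of members by role, were also chosen after values were seen.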

Additional observations from a re-analysis of the deposited data

How the results depend on the processing

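The counts called among members and among partner and other tetraspanin genes were recomputed under 17 alternatives and 2 other thresholds. Those of marker lists, roles and pairs were not, except with DESeq2, limma-voom and an unadjusted p for the marker lists. The log2 fold change of tspan36 kept its direction and its call in all 17 (2.86 to 3.08). Of the other 36 members 18 kept their side of the threshold in all 17, cd63, tspan34, tspan35, tspan37, tspan33a and cd9b among them, and 18 changed it under at least 1. No called member changed sign.

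The 13 members called higher became 8 with library size alone and 5 when a 2-fold difference was also required, which also left 0 of the 9 called lower, 10 of the 20 partner and other tetraspanin genes called higher and 6 of the 12 called lower. Leaving out 1 sample gave 10 to 13 members called higher and 6 to 13 called lower (6 without wild type replicate 1, 13 without pikfyve-delta8 replicate 3). Over all genes it gave 4138 to 5484 called higher and 3624 to 5498 called lower. There too the count called lower was lowest without wild type replicate 1 and highest without pikfyve-delta8 replicate 3. For partner and other tetraspanin genes leaving out 1 sample gave 18 to 21 called higher and 9 to 13 called lower. The members' median of 0.18 was 0.11 with upper-quartile scaling, 0.0318 with library size alone and 0.03 with each limma-trend fit on FPKM (0.0276 with a pseudocount of 1, with and without the filter, and 0.0296 with 0.1). Without 1 sample it ran from 0.12 to 0.19. The median over all genes moved down under the same settings. It was 0.0039 with TMM scaling, -0.06 with upper-quartile scaling and -0.14 with library size alone. With limma-trend on FPKM it was -0.12 with a pseudocount of 1, -0.06 with that pseudocount and no filter, and -0.14 with 0.1.

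No label ties samples of equal replicate number to a shared animal or day. Deviations of same-numbered samples correlated at -0.0745, 0.0503 and -0.0479, and 1 of 3 mutants correlated best with the wild type of its own number. With the replicate block 12 members were called higher and 9 lower, and over all genes 4967 were called higher and 4608 lower. In that fit tspan36 had a log2 fold change of 3.05. Members with few counts, such as tspan1, tspan3b and tspan33b, are limited by depth.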
